A study of Mus musculus with 6 samples.

Results

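A set of 10 FGF/ERK feedback and immediate early genes was followed in mouse embryonic stem cells (mESCs) whose lines were labelled as carrying or lacking a functional Zbtb24 gene. They were taken by name: the ligand gene Fgf4, the receptor gene Fgfr1, the feedback inhibitor genes Dusp4, Dusp6, Spry2 and Spry4, the transcription factor genes Etv4 and Etv5, and the immediate early genes Egr1 and Fos. All 10 were among the 43309 genes of the count table, found by Ensembl identifier, and all 10 were among the 16823 genes that entered the test. The 6 TruSeq Stranded mRNA libraries came from 3 control lines (Zbtb24 wild-type, 2lox/+) and 3 lines labelled Zbtb24 knockout (1lox/1lox), all of strain J1 (129SV), where 1lox is the allele left after Cre has recombined the loxP sites. Every line was grown in serum-containing medium on gelatin with no feeder cells, no FGF, inhibitor or other treatment is given in the labels, and each line gave 1 library. The study describes the lines as derived independently of each other. The p-values measure the spread between their libraries, counting noise included, and this spread was small. Within a group, the mean chi-square per gene between 2 libraries ran from 1.14 (control lines 2 and 3) to 2.24 (knockout lines 1 and 3). Counting noise alone gives a value near 1.

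FGF4 is secreted by pluripotent cells and binds FGF receptors on the same and neighboring cells. The receptors activate RAS, which starts a chain of kinases ending in ERK, and this signal is known for preparing mESCs to leave self-renewal. ERK activity induces immediate early genes and genes that damp the signal again: dual-specificity phosphatases (DUSPs) remove phosphates from ERK, Sprouty proteins act upstream near the receptor, and ETV4 and ETV5 are ETS family transcription factors whose transcription is a common readout of FGF signaling. None of the values below measures ERK phosphorylation or protein, since the libraries report polyadenylated RNA.

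Library totals lay between 25042261 and 28838924 counted fragments. The targeted gene went against its label: Zbtb24 had 510, 512 and 489 counts in the controls and 888, 925 and 1039 in the others, a log2 fold change of 0.99 (SE 0.05, edgeR quasi-likelihood test, Benjamini-Hochberg adjusted p = 4.32e-23). Whole-gene counts give no view of single exons, so the second group is called the libraries labelled knockout. All 10 pluripotency markers examined were detected, and their summed level was 5171 to 5281 cpm (counts scaled for library size and composition) in the control libraries and 6502 to 6548 in the libraries labelled knockout. The test called 8 of these markers higher in the libraries labelled knockout and 2 lower. It called 34.4% of all genes tested higher and 35.2% lower. Pou5f1, which encodes OCT4, averaged 1146 cpm in the controls and 1315 in the others. The largest shifts, named after their values were seen, were in Klf4 (3.74-fold higher), Esrrb (2.24-fold) and Nanog (2.19-fold), factors of the naive state, while Zfp42 was 1.71-fold lower. The part of this shift in the levels of the FGF/ERK genes was not tested.

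Each of the 10 genes passed the test at an adjusted p of at most 0.05, where 69.5% of all genes tested did, so a call by itself says little here. Of them, 5 (Fgf4, Spry4, Etv4, Etv5 and Egr1) were higher in the libraries labelled knockout, against 34.4% of all genes tested, and 5 (Fgfr1, Dusp4, Dusp6, Spry2 and Fos) were lower, against 35.2%. In cpm the groups did not overlap for any of the 10 genes, which held for 71.5% of all genes tested. A change of at least 2-fold set a stricter mark that 17.0% of all genes passed. It was met by 2 of the 10 genes, Etv4 among the higher genes, where 5.21% of all genes tested met it, and Dusp4 among the lower genes, where 11.8% did. The median log2 fold change was -0.11 over the 10 genes and 0.00 over all genes tested. Close relatives moved in opposite directions (Spry2 and Spry4) or by unequal amounts (Dusp4 and Dusp6, Etv4 and Etv5). Fos and Egr1, which share the immediate early label but are not close relatives, also moved in opposite directions.

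**Figure D1:**
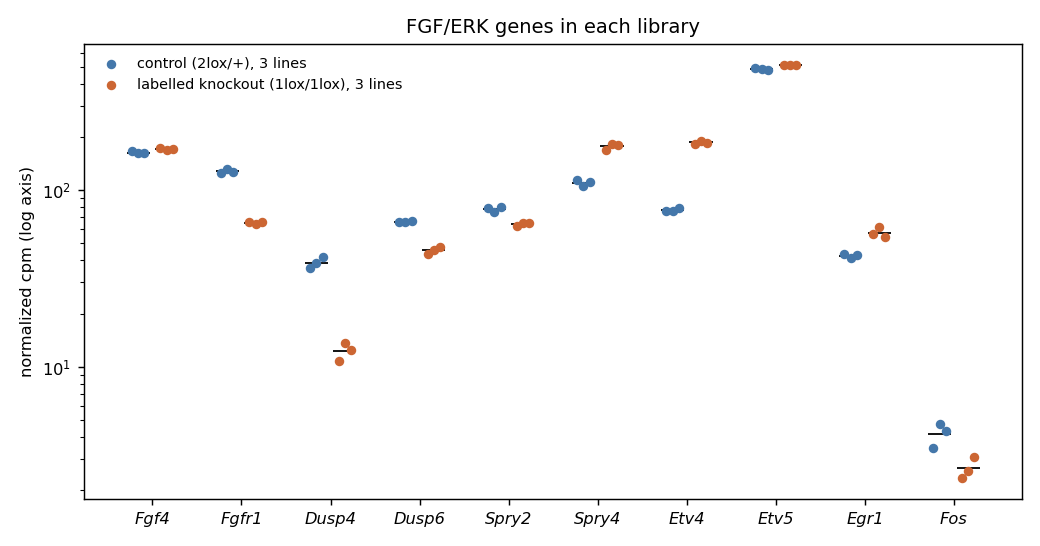
Normalized level (cpm, log axis) of the 10 genes in each of the 6 libraries, with 1 point per line and the bar at the group mean. The groups are apart for every gene, by a wide margin for Dusp4, Fgfr1 and Etv4 and by a narrow one for Fgf4 and Etv5.

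Promoter sequence is shown for the genes among the 10 whose window held one of the motifs searched. RefSeq windows of GRCm38.p6, from 250 bases before to 50 bases after the start site, were matched for 5 of the 10 genes, Fgf4, Dusp6, Fos, Spry2 and Etv5, the last with 2 windows. The promoters of Fgfr1, Dusp4, Spry4, Etv4 and Egr1 were not searched. The part from 100 bases before the start site to its base 30 is printed, 5′ to 3′ on the gene's strand. Capitals mark motif matches. The CIC octamer was searched as TGAATGAA, TGAATGGA, TCAATGAA and TCAATGGA on both strands. Capicua (CIC) is a repressor that ERK signaling relieves.
Dusp6, chr10:99263131-99263260, plus strand: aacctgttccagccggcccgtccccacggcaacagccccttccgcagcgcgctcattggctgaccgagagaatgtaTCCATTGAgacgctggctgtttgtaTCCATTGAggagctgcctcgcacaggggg
Spry2, chr14:105896790-105896919, minus strand: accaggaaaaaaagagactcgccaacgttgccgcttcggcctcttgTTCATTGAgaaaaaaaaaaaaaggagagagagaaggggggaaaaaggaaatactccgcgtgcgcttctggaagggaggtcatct
Fos, chr12:85473790-85473919, plus strand: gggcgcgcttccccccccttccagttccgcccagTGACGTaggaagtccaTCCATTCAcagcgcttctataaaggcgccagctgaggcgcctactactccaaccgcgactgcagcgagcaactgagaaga
The Dusp6 window held the octamer 2 times, as TCCATTGA starting at base -24 and again at base 2. The Spry2 window held it as TTCATTGA at base -54, and the Fos window as TCCATTCA at base -50, beside the cAMP response element core TGACGT at base -66. An octamer match was present in 3.84% of 32851 RefSeq windows of the same length and the core TGACGT in 7.51%. Neither the full element TGACGTCA (1.79% of all windows), nor the ETS motif CCGGAAG (8.86%), nor the CArG box bound by SRF (1.63%) was matched in any of these windows, and the Fgf4 and Etv5 windows held no match to any of the motifs. The matches describe letters in a short window and show no binding.

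Fgf4 (ENSMUSG00000050917, chr7:144847367-144865243, plus strand) encodes the FGF that mESCs make themselves. It had 4665, 4469 and 4434 counts in control lines 1 to 3 and 4498, 4151 and 4803 in lines 1 to 3 labelled knockout. Scaled, these were 163 ± 2.22 cpm and 170 ± 1.82 (SD, n = 3 lines each), a log2 fold change of 0.06 (95% interval 0.01 to 0.11, adjusted p = 0.0368). The difference of 1.04-fold was lost with DESeq2 (adjusted p = 0.0913) and on leaving out control line 2, control line 3 or knockout line 1 (adjusted p = 0.102, 0.147 and 0.112). The ligand RNA was thus close to the control level in every line.

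Fgfr1 (ENSMUSG00000031565, chr8:25513654-25575718, plus strand) encodes the main FGF receptor of mESCs. Counts were 3518, 3623 and 3484 in the controls, against 1720, 1573 and 1868 in the libraries labelled knockout. The level fell from 128 ± 3.53 to 65.3 ± 1.23 cpm (SD, n = 3), a log2 fold change of -0.97 (SE 0.03, adjusted p = 4.72e-31), and every library labelled knockout was far below the lowest control. Per library, the ratio of Fgf4 to Fgfr1 counts was 1.33, 1.23 and 1.27 in the controls and 2.62, 2.64 and 2.57 in the libraries labelled knockout. It was 2.04-fold higher in the latter and the groups were apart, but an exact permutation test of 3 lines against 3 cannot go below p = 0.1, the value it gave (two-sided, adjusted p = 0.1 over 5 ratios).

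Dusp4 (ENSMUSG00000031530, chr8:34807297-34819894, plus strand) encodes a phosphatase of the nucleus that acts on ERK and other MAP kinases. It had 1019, 1058 and 1145 counts in the controls and 280, 337 and 353 in those labelled knockout. The largest change of the 10 genes was this one, from 38.8 ± 2.76 to 12.3 ± 1.49 cpm (SD, n = 3), 3.16-fold lower in the libraries labelled knockout (log2 fold change -1.66, SE 0.06, adjusted p = 8.00e-29). Dusp6 (ENSMUSG00000019960, chr10:99263231-99267489, plus strand) encodes a cytoplasmic phosphatase selective for ERK. Its counts were 1864, 1804 and 1844 against 1129, 1133 and 1343, and its level fell from 66.4 ± 0.763 to 45.6 ± 2.20 cpm (log2 fold change -0.54, SE 0.04, adjusted p = 4.83e-18). Both phosphatase genes were thus lower in all 3 libraries labelled knockout, Dusp4 the more so. The ratio of Dusp4 to Dusp6 counts was 0.547, 0.586 and 0.621 in the controls and 0.248, 0.297 and 0.263 in the libraries labelled knockout (log2 difference -1.12, p = 0.1, two-sided exact permutation test, again the smallest possible).

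The Sprouty genes moved apart. Spry2 (ENSMUSG00000022114, chr14:105891947-105896819, minus strand) had 2229, 2077 and 2206 counts in the controls and 1633, 1605 and 1831 in those labelled knockout, where it fell from 78.4 ± 2.49 to 64.2 ± 1.45 cpm (log2 fold change -0.29, SE 0.03, adjusted p = 1.48e-10). Spry4 (ENSMUSG00000024427, chr18:38586247-38601415, minus strand) had 3214, 2917 and 3033 counts in the controls and 4430, 4516 and 5053 in the others, and rose from 110.3 ± 4.03 to 177 ± 7.05 cpm (log2 fold change 0.68, SE 0.03, adjusted p = 1.34e-25). Both encode inhibitors of receptor tyrosine kinase signaling, so members of 1 family with like roles went in opposite directions. The ratio of Spry2 to Spry4 counts was 0.694, 0.712 and 0.727 in the controls and 0.369, 0.355 and 0.362 in the libraries labelled knockout (log2 difference -0.97, p = 0.1, two-sided exact permutation test).

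Etv4 (ENSMUSG00000017724, chr11:101769742-101785371, minus strand) showed the largest rise. It had 2134, 2100 and 2186 counts in the controls and 4792, 4681 and 5237 in those labelled knockout, and went from 77.3 ± 2.04 to 186 ± 3.41 cpm (SD, n = 3), 2.41-fold higher (log2 fold change 1.27, SE 0.03, adjusted p = 3.21e-37). Etv5 (ENSMUSG00000013089, chr16:22381309-22439719, minus strand), its close relative, had the most counts of the 10 genes, 13857, 13303 and 13181 in the controls and 13272, 12514 and 14499 in the libraries labelled knockout. Its level of 486 ± 6.29 cpm became 510.0 ± 3.07, a log2 fold change of 0.07 (95% interval 0.03 to 0.12, adjusted p = 0.00544), which did not pass on leaving out control line 3 (adjusted p = 0.0515). Etv4 thus rose by much more than Etv5. Per library, the ratio of Etv4 to Etv5 counts was 0.154, 0.158 and 0.166 in the controls and 0.361, 0.374 and 0.361 in the libraries labelled knockout, 2.30-fold higher in the latter (p = 0.1, two-sided exact permutation test).

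Egr1 (ENSMUSG00000038418, chr18:34859823-34864984, plus strand) encodes a zinc finger transcription factor that is induced within minutes of ERK activation. It had 1217, 1136 and 1173 counts in the controls and 1477, 1519 and 1532 in those labelled knockout, and rose from 42.4 ± 0.986 to 57.5 ± 3.81 cpm (log2 fold change 0.44, SE 0.04, adjusted p = 1.94e-13). Fos (ENSMUSG00000021250, chr12:85473890-85477273, plus strand) encodes a subunit of the AP-1 transcription factor. It was the least abundant of the 10 genes, with 97, 131 and 118 counts in the controls and 61, 63 and 87 in the libraries labelled knockout, and fell from 4.17 ± 0.669 to 2.66 ± 0.383 cpm (log2 fold change -0.64, SE 0.13, adjusted p = 3.84e-05). The spread of Fos between lines, 16% and 14.4% of the mean in the 2 groups, was the widest of the 10. The ratio of Fos to Egr1 counts was 0.0797, 0.115 and 0.101 in the controls and 0.0413, 0.0415 and 0.0568 in the libraries labelled knockout (log2 difference -1.08, p = 0.1, two-sided exact permutation test).

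**Figure D2:**
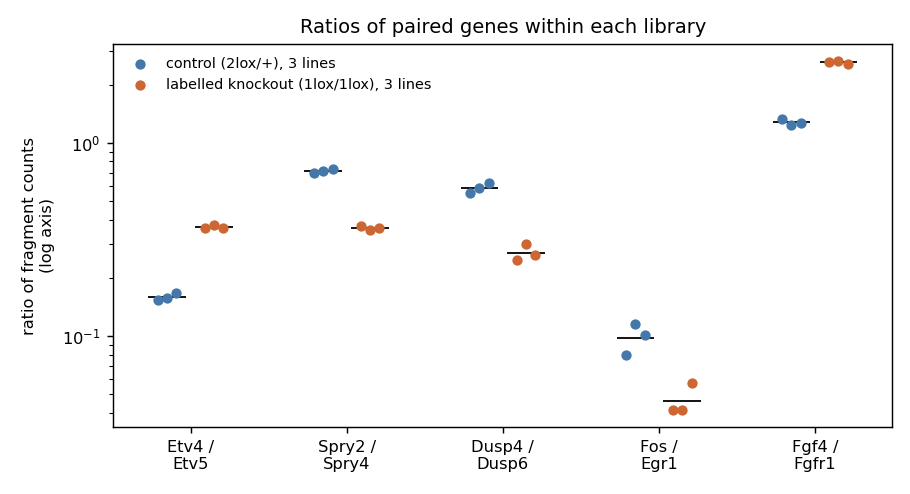
Ratio of counts between paired genes within each library (log axis), with 1 point per line. The ratios of Fgf4 to Fgfr1 and of Etv4 to Etv5 are higher, and those of Dusp4 to Dusp6, Spry2 to Spry4 and Fos to Egr1 lower, in all 3 libraries labelled knockout.

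Divided by the length of the longest transcript, levels could be set beside each other between genes. In the control libraries the order in cpm per kb was Etv5 at 122 ± 1.58 (SD, n = 3), Fgf4 at 53.9 ± 0.732, Spry2 at 37.6 ± 1.19, Etv4 at 32.3 ± 0.851, Fgfr1 at 25.4 ± 0.700, Dusp6 at 23.7 ± 0.273, Spry4 at 23.2 ± 0.848, Dusp4 at 14.2 ± 1.01, Egr1 at 9.46 ± 0.220 and Fos at 1.98 ± 0.317. The ranges of neighbors in this order overlapped only for Dusp6 and Spry4. In the libraries labelled knockout the order of these levels began with Etv5 at 128 ± 0.773, Etv4 at 77.8 ± 1.42, Fgf4 at 56.2 ± 0.601, Spry4 at 37.3 ± 1.48 and Spry2 at 30.8 ± 0.695. It went on with Dusp6 at 16.3 ± 0.787, Fgfr1 at 13 ± 0.245, Egr1 at 12.8 ± 0.849, Dusp4 at 4.49 ± 0.545 and Fos at 1.26 ± 0.182, and only Fgfr1 and Egr1 overlapped. Levels per length thus put Etv4 below Spry2 and Fgf4 in the controls and above both in the libraries labelled knockout, and Spry4 below Spry2 in the former and above it in the latter, and both held with the union of exons as the length. The places of Fgfr1, Dusp6 and Spry4, and those of Dusp4 and Egr1 beside Fgfr1, depended on the length. Over the union of exons the control levels were 23.2 cpm per kb for Spry4, 21.2 for Dusp6 and 13 for Fgfr1, already in the order of the libraries labelled knockout. By that length the control mean of Dusp4 (14.2) was above that of Fgfr1, with overlapping ranges. In the libraries labelled knockout Egr1 (12.8) was then above Fgfr1 (6.61), with no overlap.

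Fgfr1 and Dusp4 lie on chromosome 8, where most genes near them were also lower in the libraries labelled knockout. Of 57 tested genes within 5 Mb of Fgfr1, 51 (89.5%) had a log2 fold change below 0, with a median of -0.57, and Fgfr1 lay -0.40 from that median. Of 35 tested genes within 5 Mb of Dusp4, 29 (82.9%) were below 0, with a median of -0.65, and Dusp4 lay -1.01 from it. Among these neighbors, 11 had a lower log2 fold change than Fgfr1 and 4 a lower one than Dusp4. The neighbors' part in the change of either gene was not tested. Around Etv4 the median of 245 genes was 0.03 and 235 of them lay below Etv4, which was 1.24 above that median. Around the other 7 genes the neighbors' medians ran from -0.07 (Fgf4) to 0.16 (Spry2), and no gene of the 10 turned its direction when set against them: Dusp6 lay -0.48, Spry2 -0.44 and Fos -0.65 from the neighbors' median, and Spry4 0.59, Egr1 0.32, Etv5 0.13 and Fgf4 0.13.

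**Figure D3:**
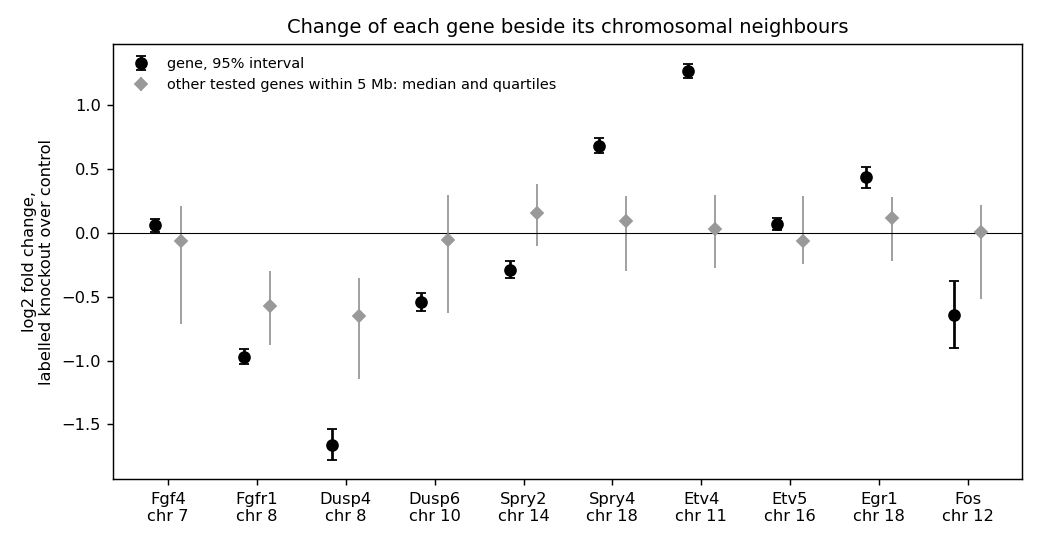
Log2 fold change (libraries labelled knockout over control) of the 10 genes with its 95% interval, beside the median and quartiles of tested genes within 5 Mb. The neighbors' median is well below 0 for Fgfr1 (-0.57) and Dusp4 (-0.65) only.

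The pathway around the 10 genes was read from lists of 84 other genes, of which 79 entered the test and 66 passed, 19 higher and 47 lower (median log2 fold change -0.24). Of all genes tested 69.5% passed, 34.4% higher and 35.2% lower. These shares are the baseline for every list and marker count at this threshold in the report. Of 11 other ligand genes 9 were tested, and 2 were higher and 4 lower. Fgf15, the FGF of the embryonic brain and intestine, fell from 456, 435 and 437 counts to 180, 166 and 181 (log2 fold change -1.26, adjusted p = 7.76e-21), and Fgf17 rose from 729, 739 and 701 to 909, 926 and 963 (0.44, adjusted p = 1.00e-11). Fgf5, a marker of the primed state that was singled out after its values were seen, had 75, 88 and 100 counts in the controls and 4, 3 and 8 in the libraries labelled knockout (log2 fold change -4.03, adjusted p = 6.47e-19). Fgf1 (0.36, adjusted p = 0.0112) and Fgf10 (-0.34, adjusted p = 0.0146) lost their calls with DESeq2 (adjusted p = 0.0753 and 0.0828), under which 3 of the ligand genes were called. Of the receptor genes, 4 were tested, with 1 higher and 3 lower. Fgfr2, which is used by trophoblast and primitive endoderm cells, fell along with Fgfr1, from 632, 639 and 624 counts to 155, 154 and 166 (log2 fold change -1.92, adjusted p = 2.49e-29). Fgfrl1, a receptor with no kinase domain, also fell (-0.95, adjusted p = 2.26e-13), Fgfr3 rose (0.50, adjusted p = 3.63e-04), and Fgfr4 was lower (-0.43, adjusted p = 0.00645), a call that DESeq2 did not make (adjusted p = 0.0516).

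Between receptor and ERK, 16 of 21 tested genes passed, 7 higher and 9 lower (median log2 fold change -0.01), where 69.5% of all genes tested passed. A change of at least 2-fold was seen in 1 gene of this list and in 17.0% of all genes tested. That gene was Sos2, an exchange factor that loads RAS with GTP, which rose (log2 fold change 1.08, adjusted p = 2.74e-21). Braf, a kinase near the top of the chain, fell (-0.69, adjusted p = 1.30e-23), where the median of tested genes within 5 Mb was 0.01. Kinases further down the chain were close to the control level: Map2k1 and Map2k2 both had a log2 fold change of 0.06 (adjusted p = 0.0634 and 0.109), and Mapk3, which encodes ERK1, -0.03 (adjusted p = 0.451). Map2k1 and Map2k2 passed when the scaling left out chromosomes 1, 6, 8 and Y (adjusted p = 0.0227 and 0.0457).

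More of the other feedback inhibitors were lower, as Dusp4 and Dusp6 were, than higher. Of 13 tested genes 12 were called, 3 higher and 9 lower (median log2 fold change -0.23), where 69.5% of all genes tested were called. Their summed level was nearly unchanged, at 530.8 to 534.6 cpm in the controls and 528.1 to 532.5 in the libraries labelled knockout. A change of at least 2-fold was seen in 1 of these genes and in 17.0% of all genes tested. Dusp5, a further nuclear ERK phosphatase, fell by 1.39 on the log2 scale (adjusted p = 2.08e-27), Dusp1 by 0.67 (adjusted p = 2.35e-15) and Spry1 by 0.62 (adjusted p = 1.38e-11), whereas Nf1, a RAS GTPase-activating protein, rose (0.76, adjusted p = 3.74e-23). Of 9 ETS and SRF-linked factors, 4 were higher and 2 lower. Ets1, itself an ERK substrate, fell (-2.0, adjusted p = 3.95e-19), as did Srf, the serum response factor (-0.43, adjusted p = 7.49e-15). Erf, an ETS repressor that ERK exports from the nucleus, and Elk4, an SRF partner, rose (0.84 and 0.73, adjusted p = 2.58e-30 and 6.99e-17). Around Elk4, on chromosome 1, the median of 121 tested genes within 5 Mb was 0.51, and Elk4 lay 0.21 above it. Around Erf that median was -0.04. The neighbors' part in the rise of either gene was not tested. Cic, looked up after the octamer matches were seen, had a log2 fold change of 0.05 and did not pass (adjusted p = 0.0687).

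Fos was in step with most other immediate early genes and Egr1 was not. Of 24 genes on that list 23 were tested and 22 passed, 2 higher and 20 lower, with a median log2 fold change of -1.13. Among all genes tested 69.5% passed and 35.2% were lower. A fall of at least 2-fold was met by 14 genes of the list and by 11.8% of all genes tested. Some of the 14, named after their values were seen, had few counts. Egr2, Egr3 and Nr4a2 had means of 9.67, 10.7 and 12.8 counts, and Fosb, Atf3 and Fosl1 of 22, 42 and 43. Ccn2 and Ccn1, which encode matrix-associated growth factors and also answer to YAP, led the fall: Ccn2 went from 3572, 3721 and 3669 counts to 344, 373 and 456 (log2 fold change -3.15, adjusted p = 3.97e-46), and Ccn1 changed by -2.30 (adjusted p = 6.09e-39). Jun, the partner of FOS in AP-1, changed by -2.06 (adjusted p = 5.67e-27) and Klf6 by -2.0 (adjusted p = 8.56e-41). The 2 that rose with Egr1, named after their values were seen, were Ier3, from 199, 201 and 210 counts to 642, 552 and 682 (1.69, adjusted p = 1.06e-27), and Maff (0.34, adjusted p = 0.00165). The summed level of the tested genes of the list was 869.8 to 915 cpm in the controls and 455 to 481 in the libraries labelled knockout.

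**Figure D4:**
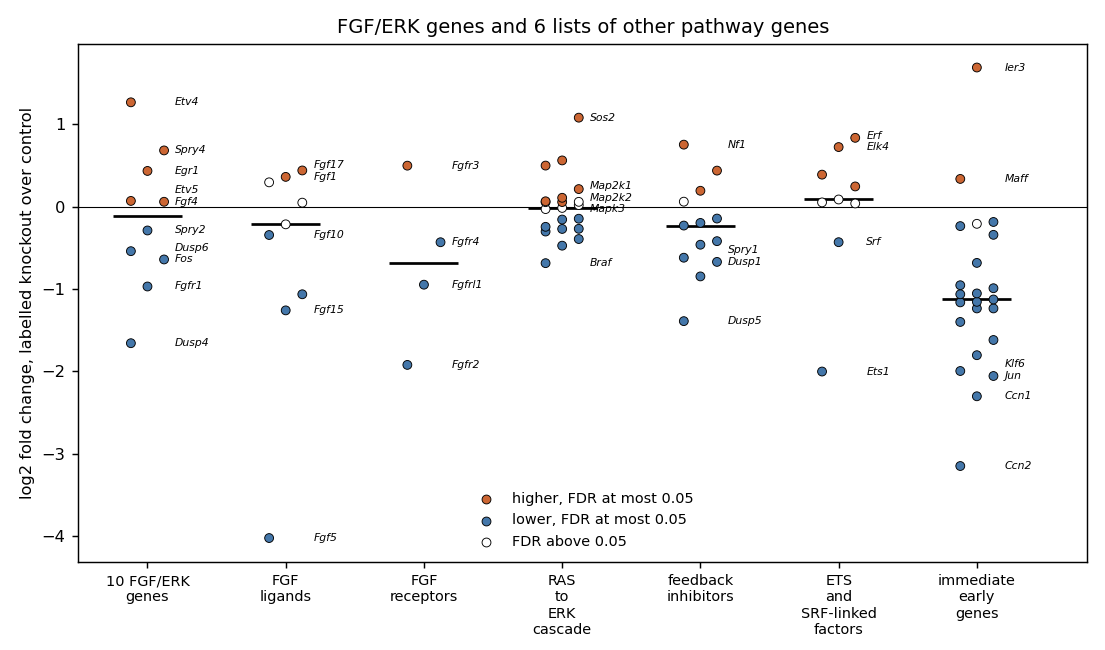
Log2 fold change (libraries labelled knockout over control) of every tested gene of each FGF/ERK list, with 1 point per gene, the list median as a bar and the 10 genes followed here in their own column. The immediate early genes lie mostly below 0, with Ccn2 at -3.15, while the RAS to ERK cascade is spread around 0.

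Markers of other cells and heat shock genes were read beside these genes. The summed level of 7 fibroblast markers was 59.6 to 62.1 cpm in the controls and 12.2 to 13 in the libraries labelled knockout. Of the 6 tested, 5 were lower and 0 higher, where 35.2% of all genes tested were lower and 34.4% higher, and Pdgfrb did not pass. Col1a1 went from 1095, 1126 and 1188 counts to 92, 110 and 107, Col1a2 was 8.86-fold and Thy1 1.69-fold lower. Of the markers outside the naming rule, given after their values were seen, Lum was at 0 in all 6 libraries and Postn had 7, 8 and 11 counts in the controls and 0 in each library labelled knockout. The 4 tested of the 5 neural progenitor markers summed to 105 to 109 cpm in the controls and 39.9 to 41.1 in the others. Most of the control sum came from Nes (95.1 and 19.0 cpm on average in the 2 groups), and 2 of the 4 were higher and 2 lower. The summed level of 7 heat shock genes, which rise when cells are stressed in handling, was 6609 to 6729 cpm in the controls and 6759 to 6836 in the libraries labelled knockout, with 1 higher (Hspa8) and 6 lower. Most of this sum came from Hsp90aa1 (3407 and 3147 cpm on average) and Hspa8 (2661 and 3230), so it hid larger falls. Hspa1a was 2.36-fold, Hspb1 1.99-fold and Hspa1b 1.40-fold lower, all 3 named after their values were seen. Any part of other cells or of handling in the levels of Fos, Dusp4, Fgfr1 and the other genes was not tested. In bulk RNA, fewer cells of a type and less RNA per cell cannot be told apart.

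The genes closest to 2 of the 10 in profile over the 6 libraries were searched among 11115 genes, by the distance between log2(cpm + 1) values centered on each gene's mean. Closest to Fgf4 were Golga2 (distance 0.0149), Spred2 (0.0180) and Ndufaf7 (0.0183). Closest to Dusp4 were Klhl26 (0.106), which also lies on chromosome 8, Slc27a2 (0.116) and Crybg1 (0.151). With 2 groups of 3 lines, such a distance mostly reads how alike the group difference is.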

How the data were processed

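The authors removed CASAVA 1.8.2 reads from rRNA with Bowtie2 2.1.0, mapped the others to mm10 with TopHat2 2.0.10 and counted sense-strand fragments per GENCODE M4 gene with HTSeq 0.6.1 (versions as in the submitters' processing notes), leaving out fragments with several genes or locations. The deposited values are raw counts, neither normalized nor filtered. Columns were matched to samples by name, with 0 columns left over.

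Here, symbols and positions came from GENCODE M21 (42425 of 43309 identifiers matched). A gene entered the test with 10 or more counts in any library. The test used was edgeR 4.0.16 in R 4.3.3 (TMM, quasi-likelihood test, Benjamini-Hochberg over 16823 genes, threshold 0.05), checked first on simulated data. Adjusted p-values in the report are from this test unless DESeq2 1.42.0 is named. Cpm values use TMM-scaled totals. Ratios were tested by exact permutation (scipy 1.17.1). Intervals and SEs cover the spread between the libraries of these lines, counting noise included. The SE was derived from the F statistic of the test, and the 95% interval is a normal approximation from that SE. It is therefore somewhat narrower than the test allows, which matters for borderline genes such as Fgf4.

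The 10 genes, the lists, the motifs and the tests were chosen with earlier results of these data known. Besides the 10 genes, Zbtb24 and the kinases Map2k1, Map2k2 and Mapk3, the text names at most 4 called genes per pathway list (largest change, mean of at least 50 counts, groups that do not overlap), the most abundant 3 at most of each marker list, and the 3 nearest profiles to Fgf4 and Dusp4 (mean of at least 100 counts). Genes outside this rule are marked where they are named. Fgf2, Fgf9, Klb and Nr4a3 were under the filter and Spry3 was not matched. Some genes that this rule names are not reported here. The alternatives were DESeq2, the edgeR exact test, RLE size factors, no filter, at least 10 counts in 3 libraries, scaling without chromosomes 1, 6, 8 and Y, the replicate number as a block, and leaving out each library.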

Additional observations from a re-analysis of the deposited data

How the results depend on the processing

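The number of the 10 genes called was 9 with DESeq2 and 10 under the other alternatives with all libraries, and 8 to 10 with 1 library left out. The number changed at least 2-fold was 2 throughout. No direction among the 10 genes reversed. Fgf4 and Etv5 lost calls as given in the report, and without control line 3 the higher genes fell from 5 to 3. The other 8 genes kept their calls under every alternative: on leaving out a library, the log2 fold change of Dusp4 ranged from -1.74 to -1.57, of Fgfr1 from -0.99 to -0.95, of Dusp6 from -0.57 to -0.50, of Spry2 from -0.32 to -0.27, of Spry4 from 0.66 to 0.72, of Etv4 from 1.25 to 1.29, of Egr1 from 0.38 to 0.48 and of Fos from -0.77 to -0.54. Of the 84 other pathway genes, 58 to 72 were called where 66 were in the report. Over all genes, 10326 to 12073 were called against 11697. Fgf10 also missed the threshold without control line 2 or knockout line 2 (adjusted p = 0.0514 and 0.0743), Fgf1 without control line 1 or knockout line 1 (0.0732 and 0.0790), and Fgfr4 without knockout line 3 (0.0566). Map2k1 passed without knockout line 3 (0.010) and Map2k2 without control line 3 (0.0367).

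Control and knockout lines share only their numbers: deviations of same-numbered lines from their group means correlated at 0.0283, 0.0553 and 0.00867. With the replicate number as a block, 11801 genes were called, 10 of the 10 genes among them, and 66 other pathway genes. No paired fit was made for the ratios. PCR duplicates carried no molecular identifiers, and Fos, with 61 to 131 counts per library, had the least depth. The cause of these shifts was not tested.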

Other observations

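Markers of the lineages whose choice FGF signaling is known to guide in the embryo moved in both directions, while their summed levels hid part of this. Across all genes tested, 34.4% were called higher and 35.2% lower. The 7 primitive endoderm markers summed to 11.7 to 13 cpm in the control libraries and 10.7 to 12.9 in the libraries labelled knockout, a sum to which Dab2, which did not pass, gave the most (6.52 and 5.84 cpm on average). Of the 7, 1 was higher (Sox7, 2.36-fold) and 3 were lower: Gata4 (1.96-fold) and, named after their values were seen, Sox17 and Foxa2. Counts were low, with means of 54.7 for Sox7, 40.3 for Gata4, 10.7 for Sox17 and 4.5 for Foxa2. The 6 trophectoderm markers summed to 76.4 to 80.2 and 79.2 to 81.3 cpm, with a median log2 fold change of -0.89. Tfap2c (53.3 and 70.6 cpm) and Eomes were higher, and 3 were at least 2-fold lower: Krt7, a keratin of simple epithelia (15.1 and 1.70 cpm), and, named after their values were seen, Gata3 (4.12 and 1.47 cpm) and Cdx2 (0.637 and 0.304 cpm). A fall of that size was met by 11.8% of all genes tested. The 4 tested primitive streak markers summed to 3.20 to 4.48 and 3.17 to 3.79 cpm, with 1 higher and 1 lower. Of the neural progenitor markers, Nes, an intermediate filament gene, changed by -2.33, while Olig2 had 1, 2 and 2 counts in the controls and 269, 278 and 313 in the libraries labelled knockout. Among immediate early genes on chromosome 1, Ier5, Atf3 and Btg2, named after their values were seen, were lower although the median log2 fold change of tested genes within 5 Mb was 0.55, 0.68 and 0.54.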
